A study of Mus musculus with 6 samples.

Results

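Genes of sensory neurons, and genes that neurons of many kinds share, were examined in bulk RNA-seq of the maxillary prominence, the embryonic tissue that forms much of the upper jaw and the palate. They were taken from the files by a fixed list of gene symbols. Of the 38 symbols, 37 were found among the 53801 genes of the count files, and the symbol Drgx is a newer name for Prrxl1, which was found under its older name. The samples were 3 WT and 3 wnt1cre; Rosa26Dlx2/- (Dlx2OE) samples of C57BL/6J embryos (strain label C57BL/6) at E12.5. In Dlx2OE embryos the wnt1cre driver, active in the neural crest lineage, switched on a Flag-tagged Dlx2 knock-in at the Rosa26 site by removing a stop cassette behind a CAG promoter. WT embryos are labelled as wild type, and no group analysed here carried the driver or the knock-in alone, so effects of the driver, the site and the extra Dlx2 cannot be told apart. The comparison asks how overexpression of Dlx2 in the neural crest changes the transcriptome of this tissue, and here how its neuronal part differs between genotypes and between samples of 1 genotype.

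The face is innervated by the trigeminal ganglion, whose maxillary branch runs into the maxillary prominence. Its sensory neurons arise from the neural crest and from placodes. Proneural bHLH factors (Neurog1, Neurog2, Neurod1, Neurod4) act as cells commit to the neuronal fate, and homeobox factors such as Pou4f1 (Brn3a), Isl1, Tlx3 and Prrxl1 then act in the specification and differentiation of sensory neurons. The neurons depend for survival on neurotrophins and on ligands of the GDNF family, which signal through receptors such as Ntrk2, Ntrk3, Ngfr and Ret, and they lay down neurofilaments and other cytoskeletal proteins as axons grow. In bulk tissue, a difference in the number of neurons and a difference in RNA per neuron cannot be told apart. How much ganglion or nerve each dissection held was not tested.

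Files held 30332754 to 31308813 counts on genes in WT samples and 26155500 to 30570784 in Dlx2OE samples. Levels are CPM, the reads of a gene scaled to a fixed total per library by the TMM method, and the floor of 3 counts corresponded to 0.0955 to 0.111 CPM. Dlx2 itself had 35.0 to 45.2 CPM in WT samples and 119 to 131 CPM in Dlx2OE samples. Its level was 3.03-fold higher in Dlx2OE (edgeR adjusted p = 0.00241), and the groups did not overlap. The share of reads outside annotated genes was 5.03% to 5.43% in WT samples but 5.75%, 7.81% and 14.7% in Dlx2OE samples 1 to 3, the same order as the neuronal levels described next, and its part in them was not tested. Mesenchymal markers of the prominence (Prrx1, Prrx2, Twist1, Pdgfra, Col1a1, Col1a2 and Msx1) summed to 2703 to 3302 CPM in WT and 3486 to 3674 CPM in Dlx2OE. They varied much less between samples of a genotype than the neuronal genes did.

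The 250 bases before the start sites of 4 members are shown first. Pou4f1 and Tlx3 are sensory homeobox genes whose levels differed widely between Dlx2OE samples, Neurog1 is a proneural gene that did not follow them, and Prph, the gene of the intermediate filament peripherin, stands for the axonal genes. The sequences are RefSeq promoters on GRCm38, each written 5′ to 3′ on the strand of its gene, and capitals mark matches on either strand to the E-boxes CAGCTG and CAGATG, the homeobox core motifs TAATTA and TAATTG, the GC box GGGCGG, the CCAAT box and TATAAA.
Pou4f1, chr14:104468000-104468249, reverse strand: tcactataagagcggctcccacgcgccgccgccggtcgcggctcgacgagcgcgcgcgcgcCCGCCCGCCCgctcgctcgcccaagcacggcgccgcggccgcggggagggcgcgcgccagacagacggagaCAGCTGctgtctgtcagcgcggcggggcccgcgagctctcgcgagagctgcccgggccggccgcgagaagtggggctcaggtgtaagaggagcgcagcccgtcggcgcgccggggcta
Tlx3, chr11:33203589-33203838, reverse strand: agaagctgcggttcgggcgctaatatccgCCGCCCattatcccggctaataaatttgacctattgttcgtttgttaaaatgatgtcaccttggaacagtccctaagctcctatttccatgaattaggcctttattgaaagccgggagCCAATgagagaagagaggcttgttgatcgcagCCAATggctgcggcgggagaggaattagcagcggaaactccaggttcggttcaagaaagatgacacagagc
Neurog1, chr13:56252181-56252430, reverse strand: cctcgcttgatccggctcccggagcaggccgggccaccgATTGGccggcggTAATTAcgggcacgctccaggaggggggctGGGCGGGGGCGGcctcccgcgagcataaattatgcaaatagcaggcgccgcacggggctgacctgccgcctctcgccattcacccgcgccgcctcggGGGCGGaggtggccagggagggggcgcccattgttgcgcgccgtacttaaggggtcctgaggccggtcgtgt
Prph, chr15:99054924-99055173, forward strand: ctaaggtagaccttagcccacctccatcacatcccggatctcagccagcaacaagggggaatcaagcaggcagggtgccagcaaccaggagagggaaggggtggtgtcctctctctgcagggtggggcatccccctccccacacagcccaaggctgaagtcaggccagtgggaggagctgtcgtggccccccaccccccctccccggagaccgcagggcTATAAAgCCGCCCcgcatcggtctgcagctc
The Pou4f1 window held an E-box and overlapping GC boxes, the Tlx3 window 1 GC box and CCAAT boxes, and the Prph window a TATAAA beside a GC box. The Neurog1 window was the only one of these 4 with TAATTA. Promoters were matched for 28 of the 37 members, with 46 promoters in all, and not for Ntrk3, Ret, Stmn2, Snap25, Syt4, Nefl, Nefm, Nefh and Gap43. The GC box was in 25 of the 46 windows (18 genes), against 32.7% of all 32851 windows of this length. TAATTA was in 5 (3 genes), against 4.84%. Windows of 1 gene are counted separately and are not independent. CAGCTG was in 9 (8 genes, 13.0% of all windows), CAGATG in 7 (5 genes, 14.4%) and CCAAT in 18 (12 genes, 33.8%). TATAAA was in 4 (3 genes, 12.4%) and TAATTG in 1 (7.17%). A match to these letters is a description of the window and does not show that a factor binds there.

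Most members were highest in Dlx2OE samples 2 and 3. Dlx2OE 1 was above the WT range for 4 of the 34 tested, Stmn2, Gap43, Nefh and Ntf3 (30.6% of all tested genes), and not for the other 30. The summed level of 12 pan-neuronal members (Elavl3, Elavl4, Tubb3, Stmn2, Stmn3, Snap25, Dcx, Ina, Gap43, Uchl1, Nefl and Nefm) was 179, 521 and 304 CPM in WT samples 1 to 3 and 314, 892 and 1938 CPM in Dlx2OE samples 1 to 3. Dlx2OE 3 was 6.17-fold above Dlx2OE 1, and the highest WT sample was 2.90-fold above the lowest. Dlx2OE 1 lay inside the WT range and the other 2 Dlx2OE samples above it.

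**Figure D1:**
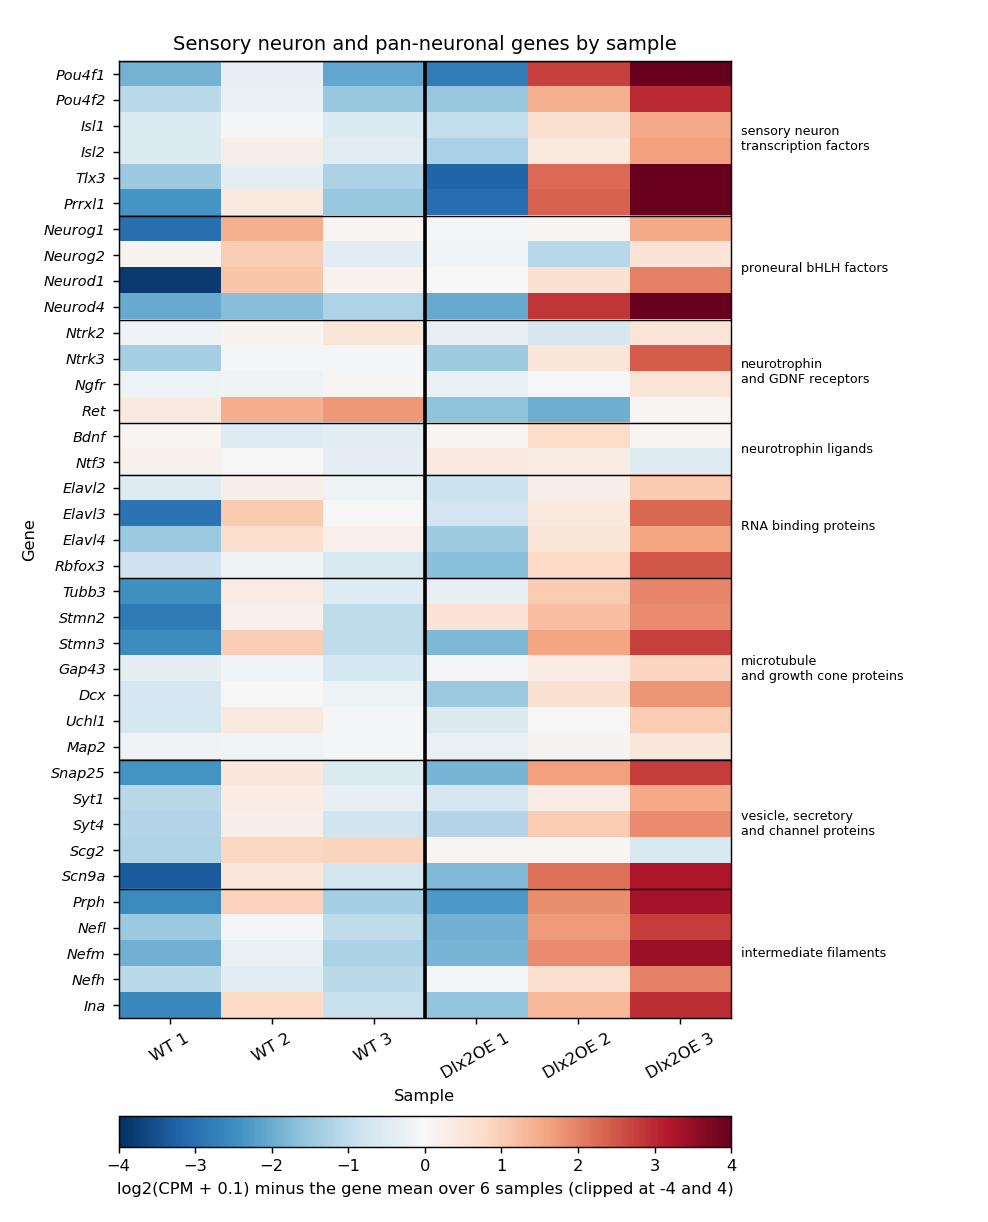
Level of each of the 37 members (lines, grouped by role) in each of the 6 samples (columns), as log2(CPM + 0.1) minus the mean of the gene over the samples, from blue (below) to red (above). Dlx2OE 3 is the reddest column in most groups and WT 1 and Dlx2OE 1 the bluest, while Ret is red only in WT samples.

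The order of the samples within a genotype was shared by most members. Of the 34 members that passed the filter on low counts, WT 1 was the lowest WT sample in 29 and WT 2 the highest in 26. Dlx2OE 1 was the lowest Dlx2OE sample in 30, and Dlx2OE 3 the highest in 31. All of these held at once for 23 of the 34 members and for 4.58% of all tested genes. Samples of a single genotype thus stood in nearly 1 order across genes of transcription, cytoskeleton and synapse, and the spread this puts into every comparison of the genotypes was large. The median standard error of the log2 fold change was 0.71 over the members and 0.18 over all 17514 genes tested.

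Between the genotypes, 31 of 34 tested members had a log2 fold change above 0, against 50.3% of all tested genes, and 19 had one above 1, against 5.25%. The median was 1.09 over the members and 0.0028 over all genes. No member passed an adjusted p of 0.05 in edgeR's quasi-likelihood test, where 6.45% of all tested genes did (2.99% higher and 3.46% lower). With no filter on low counts 11 members were called higher and Ret lower, where 6.09% of all genes passed (2.58% higher and 3.51% lower). At an unadjusted p under 0.05, 10 members were higher (14.1% of all genes) and 1, Ret, was lower (15.4%). DESeq2, the tool of the study, called 4 members higher, Pou4f1, Neurod4, Nefh and Gap43 (5.81% of all genes), and 1 lower, Ret (7.54%). Groups that did not overlap were found for Stmn2, Nefh and Gap43, higher in Dlx2OE (16.7% of all genes), and for Ret, lower (17.3%). Non-overlap was therefore no more frequent among the members than among all genes. A separate count describes the samples themselves: Dlx2OE 2 and 3 were both above all WT samples for 24 members (25.3% of all genes), and for 21 of them Dlx2OE 1 was not (8.58%).

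The result depended on which Dlx2OE sample was kept. When each of the 6 samples was left out in turn, leaving out Dlx2OE 1 gave 18 of 36 tested members higher at an edgeR adjusted p under 0.05 and none lower, where 5.36% of all genes were higher and 5.33% lower. They comprised all 6 sensory transcription factors, Neurod4, Ntrk3, Rbfox3, Gap43, Dcx, Snap25, Syt4, Scn9a, Prph, Nefl, Nefm and Nefh. Leaving out Dlx2OE 3 gave none higher (0.966% of all genes) and only Ret lower (0.793%), with 1.76% of all genes passing in either direction, and leaving out any of the other 4 samples gave no member call. Dlx2OE 1 was not removed from the values that follow.

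**Figure D2:**
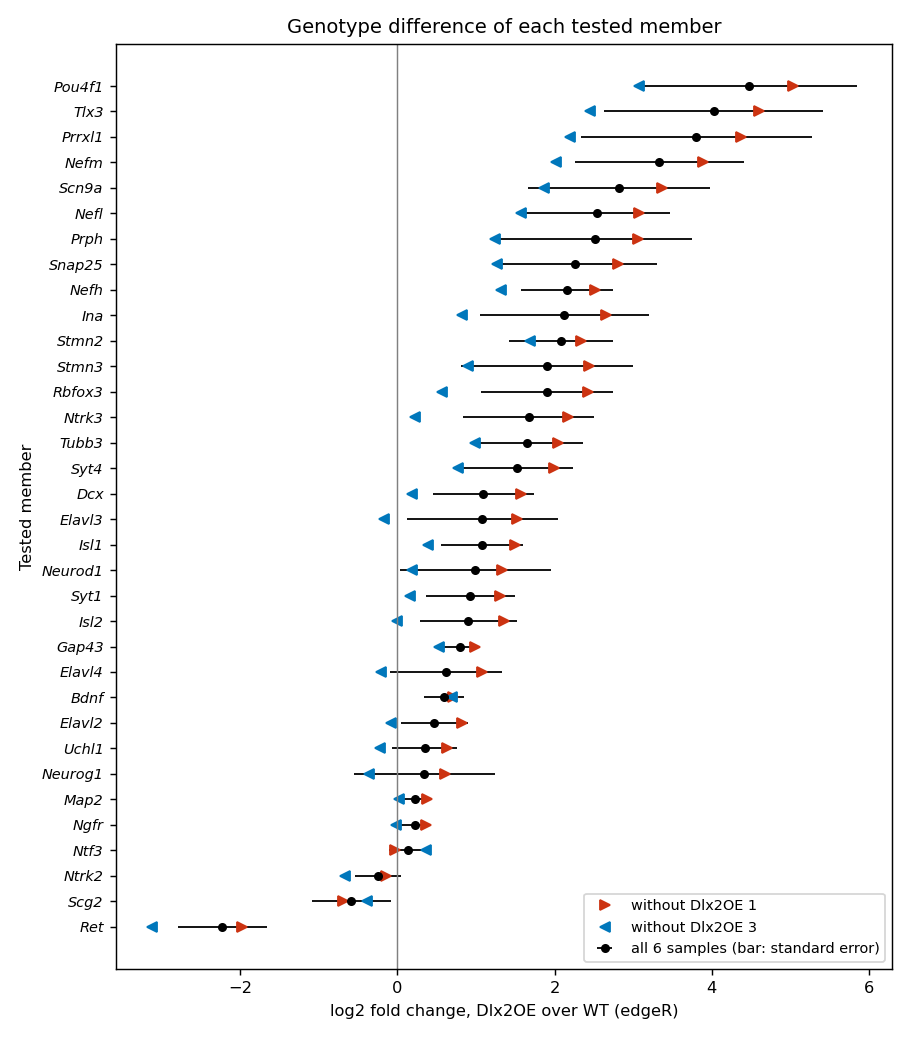
Log2 fold change of Dlx2OE over WT (x axis) for each of the 34 tested members (y axis), with all 6 samples (circles, bars are standard errors), without Dlx2OE 1 (right-pointing triangles) and without Dlx2OE 3 (left-pointing triangles). For most members the value was highest without Dlx2OE 1 and lowest without Dlx2OE 3, and Ret lay below 0 in all 3.

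Among members tested in edgeR with all samples, the 3 highest log2 fold changes were those of the sensory factors Pou4f1, Tlx3 and Prrxl1, while Isl1 and Isl2 of the same group had values below those of the intermediate filaments. Pou4f1 (ENSMUSG00000048349, chr14:104461676-104467999 in mm10), a POU homeobox factor of differentiating sensory neurons, had 21, 70 and 19 counts in WT samples 1 to 3 and 10, 633 and 1642 counts in Dlx2OE samples 1 to 3. Dlx2OE 1 was thus below every WT sample, and Dlx2OE 2 and 3 were above them all. WT samples averaged 1.22 ± 0.960 CPM and Dlx2OE samples 27.0 ± 30.7 CPM (mean ± SD, 3 samples per genotype), a log2 fold change of 4.47 with a standard error of 1.38 (edgeR adjusted p = 0.0844, DESeq2 adjusted p = 0.0295). Tlx3 and Prrxl1, homeobox factors of the same neurons, are given because their pattern was seen to be that of Pou4f1. Tlx3 had 10, 26 and 13 counts in WT samples and 1, 185 and 561 in Dlx2OE samples. Prrxl1 had 5, 52 and 12 counts in WT samples and 2, 218 and 677 in Dlx2OE samples. Both were at or under the floor of 3 counts in Dlx2OE 1 and above every WT sample in the other 2. Neither passed the test with all samples (log2 fold change 4.02 and 3.80, edgeR adjusted p = 0.108 and 0.136).

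Isl1, a LIM homeobox factor, had the highest level per length of this group, 10.8 CPM per kb of exon over the 6 samples. Isl1 had 24.5, 34.1 and 24.0 CPM in WT samples and 17.8, 54.4 and 102 CPM in Dlx2OE samples. The order of the samples was that of Pou4f1, but the span was far smaller, 5.76-fold between Dlx2OE 1 and Dlx2OE 3 for Isl1 and 180-fold for Pou4f1. Its log2 fold change was 1.08 with a standard error of 0.52 (edgeR adjusted p = 0.203). Isl2, its paralog, had a log2 fold change of 0.90 (edgeR adjusted p = 0.355), which was -0.0067 without Dlx2OE 3. Pou4f2 was not tested with all samples, with 0 to 4 counts in WT and 0, 21 and 59 counts in Dlx2OE.

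Proneural factors did not share this pattern, apart from Neurod4. Neurod4, a bHLH factor, had 1, 2 and 4 counts in WT samples and 1, 120 and 240 counts in Dlx2OE samples. Its level was near the floor in all WT samples and in Dlx2OE 1, and far above it in the other 2. It did not pass edgeR's filter with all samples, and DESeq2 gave an adjusted p of 0.00749. Neurog1, which acts upstream of Neurod1 in cranial sensory neurons, had a log2 fold change of 0.35 with a standard error of 0.90 (edgeR adjusted p = 0.816). Neurod1, the proneural member with the highest level per length, had 0.273, 11.3 and 5.74 CPM in WT samples and 5.27, 7.96 and 21.4 CPM in Dlx2OE samples. WT 1 stood 41.5-fold below WT 2, and the genotypes overlapped (log2 fold change 0.99, standard error 0.96, edgeR adjusted p = 0.513). The sum of Neurog1 and Neurod1 was 0.547 to 19.3 CPM in WT and 8.03 to 29.9 CPM in Dlx2OE. The sum of Pou4f1, Prrxl1 and Tlx3 was 1.23 to 4.91 CPM in WT and 0.439, 33.0 and 106 CPM in Dlx2OE. Dlx2OE 2 therefore lay above all WT samples for the homeobox genes and inside the WT range for the proneural pair. Neurog2 was near the floor throughout, with 0 to 10 counts, and was not tested.

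**Figure D3:**
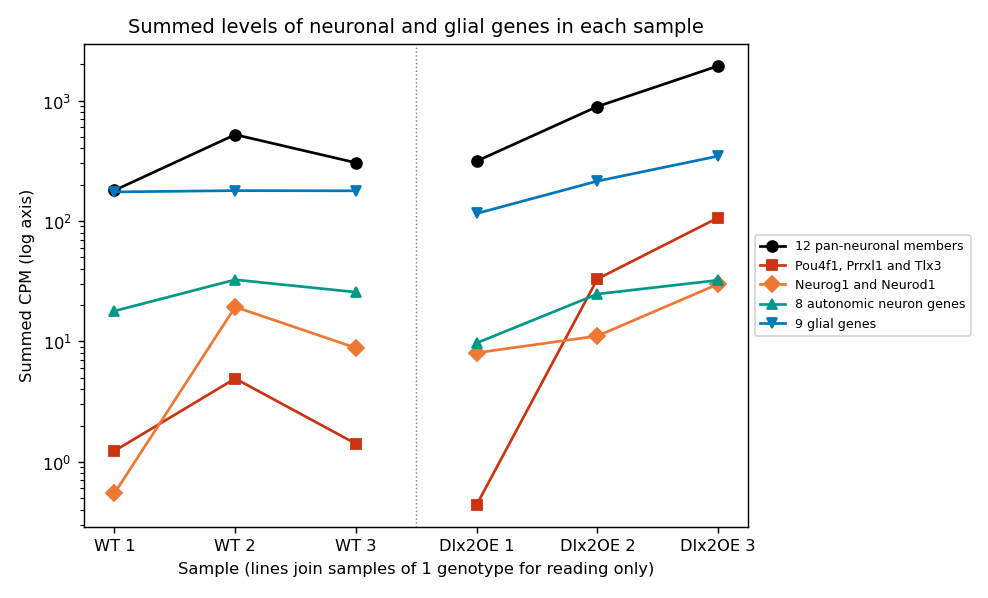
Summed CPM (y axis, log scale) in each of the 6 samples (x axis) of 12 pan-neuronal members, of Pou4f1, Prrxl1 and Tlx3, of Neurog1 and Neurod1, of 8 autonomic neuron genes and of 9 genes of satellite glia and Schwann cells. The homeobox sum spans 0.439 to 106 CPM within Dlx2OE, and the autonomic sum overlaps between Dlx2OE (9.69 to 32.2 CPM) and WT (17.9 to 32.5 CPM).

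Among the receptors, Ret (ENSMUSG00000030110, chr6:118151745-118197718), the tyrosine kinase through which GDNF family ligands signal, went the other way from most members. Ret had 8.85, 18.7 and 22.7 CPM in WT samples and 2.16, 1.69 and 6.98 CPM in Dlx2OE samples. Every Dlx2OE sample was below every WT sample. An exact two-sided permutation test of 3 against 3 samples cannot give less than 0.1, whatever the difference. The log2 fold change was -2.22 with a standard error of 0.57, a 4.66-fold lower level, and the edgeR adjusted p was 0.0570. The adjusted p was 0.0200 in DESeq2 and 0.0201 in edgeR without Dlx2OE 3. Over the 6 fits with a sample left out, the log2 fold change was -3.12 to -1.88 and the adjusted p 0.0201 to 0.182.

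Of the neurotrophin receptors, Ngfr and Ntrk2 varied less between samples than Ret, and Ntrk3 varied more within Dlx2OE. Ngfr, the p75 receptor, had the highest level per length of the receptors, 25.4 CPM per kb. Its levels were 75.1, 78.0 and 89.0 CPM in WT samples and 72.2, 87.1 and 123 CPM in Dlx2OE samples, and the genotypes overlapped (log2 fold change 0.22, standard error 0.19, edgeR adjusted p = 0.454). Ntrk2, the receptor of BDNF, had a log2 fold change of -0.25 (edgeR adjusted p = 0.605). Ntrk3, the receptor of neurotrophin-3, had one of 1.67 with all samples (edgeR adjusted p = 0.222), 2.17 without Dlx2OE 1 (edgeR adjusted p = 0.0426) and 0.22 without Dlx2OE 3.

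Neither ligand among the members passed the test. Ntf3, which encodes neurotrophin-3, had 23.2, 20.8 and 15.9 CPM in WT samples and 26.7, 24.9 and 14.4 CPM in Dlx2OE samples. Dlx2OE 1, the lowest Dlx2OE sample for most neuronal genes, was the highest of all samples for Ntf3, and Dlx2OE 3 was the lowest. The log2 fold change was 0.14 with a standard error of 0.25 (edgeR adjusted p = 0.726). Bdnf had one of 0.59 with a standard error of 0.25 (unadjusted p = 0.0468, edgeR adjusted p = 0.163).

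The RNA-binding proteins of neurons, the Elavl (Hu) family and Rbfox3 (NeuN), did not pass the test with all samples, and their log2 fold changes ran from 0.47 for Elavl2 to 1.90 for Rbfox3. Elavl4 (HuD), the highest per length, had 10.8, 46.8 and 35.1 CPM in WT samples and 11.2, 42.1 and 89.5 CPM in Dlx2OE samples. Its groups overlapped widely, with WT 1 and Dlx2OE 1 at nearly the same level (log2 fold change 0.62, standard error 0.71, edgeR adjusted p = 0.583). Without Dlx2OE 3 the values of Elavl2, Elavl3 and Elavl4 were -0.074, -0.17 and -0.21. Rbfox3, a marker of more mature neurons, passed the test without Dlx2OE 1 (edgeR adjusted p = 0.0200).

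Among microtubule and growth cone proteins, Stmn2 and Gap43 were higher in every Dlx2OE sample than in every WT sample, Dlx2OE 1 included. Gap43, a growth cone protein, had 71.1, 83.6 and 55.6 CPM in WT samples and 87.2, 114 and 165 CPM in Dlx2OE samples. The log2 fold change was 0.80 with a standard error of 0.24 (edgeR adjusted p = 0.0791, DESeq2 adjusted p = 0.00534). Stmn2, a tubulin-binding protein of growing axons given here for its non-overlap, had 6.73, 56.0 and 23.9 CPM in WT samples and 73.3, 112 and 182 CPM in Dlx2OE samples. In Dlx2OE 1, where Pou4f1 was lowest, Stmn2 was thus already above WT 2 (log2 fold change 2.08, standard error 0.66, edgeR adjusted p = 0.0885). Tubb3, the neuronal beta-tubulin and the member with the highest level per length of all, 69.4 CPM per kb, had 16.0, 111 and 60.8 CPM in WT samples and 69.4, 178 and 342 CPM in Dlx2OE samples. Dlx2OE 1 lay within the WT range for Tubb3 (log2 fold change 1.65, standard error 0.72, edgeR adjusted p = 0.169). Stmn3, Dcx, Uchl1 and Map2 had log2 fold changes of 0.22 to 1.91 and overlapping groups.

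**Figure D4:**
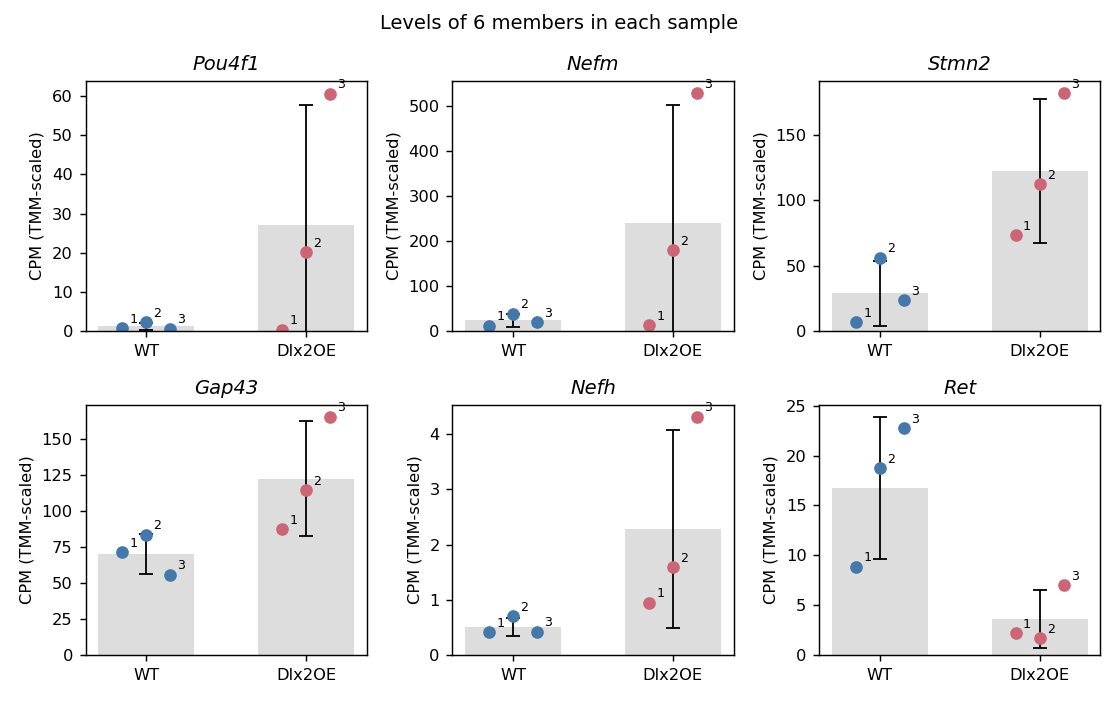
CPM (y axis, from 0) of 6 members in WT (blue points) and Dlx2OE (red points), with sample numbers beside the points, bars at the mean and error bars of 1 SD (n = 3), which are cut off at 0. For Pou4f1 and Nefm the Dlx2OE points spread from the WT level to 60.6 and 528 CPM, whereas for Stmn2, Gap43 and Nefh all Dlx2OE points are above the WT points and for Ret all are below.

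The intermediate filaments of axons had log2 fold changes from 2.12 for Ina to 3.33 for Nefm. Nefm (ENSMUSG00000022054), the medium neurofilament subunit and the highest per length of the group, had 12.5, 39.1 and 19.9 CPM in WT samples and 13.0, 180 and 528 CPM in Dlx2OE samples. Dlx2OE 1 was at the level of the lowest WT sample, while Dlx2OE 2 and 3 exceeded all WT samples (log2 fold change 3.33, standard error 1.07, edgeR adjusted p = 0.0916). Without Dlx2OE 1 the log2 fold change of Nefm was 3.88 (edgeR adjusted p = 0.00892). The light subunit Nefl lies on the opposite strand of the same locus, and 32.8% of its exon bases overlap Nefm in the annotation. The strand setting of the counting is not given in the sources used here, and reads in the overlap cannot be told apart without strand. Nefh, the heavy subunit, had 12, 21 and 13 counts in WT samples and 28, 50 and 117 counts in Dlx2OE samples. All Dlx2OE samples were above all WT samples (log2 fold change 2.16, standard error 0.59, edgeR adjusted p = 0.0632, DESeq2 adjusted p = 0.00470). Prph, peripherin, which is typical of peripheral neurons, had a log2 fold change of 2.51 with a standard error of 1.23 (edgeR adjusted p = 0.213).

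Genes of vesicles and excitability divided into 4 with values above 0 and 1 below. Scn9a, the sodium channel Nav1.7 of sensory neurons, had the largest log2 fold change of them, 2.82 with a standard error of 1.15 (edgeR adjusted p = 0.151). Snap25, Syt4 and Syt1, of the vesicle fusion machinery, had 2.26, 1.52 and 0.93. Scg2, a secretogranin of dense-core vesicles, had the highest level per length of the group and 2.05, 8.56 and 9.04 CPM in WT samples and 4.96, 5.06 and 3.10 CPM in Dlx2OE samples. It was lowest of the Dlx2OE samples in Dlx2OE 3, where most other members were highest, and its groups overlapped (log2 fold change -0.58, standard error 0.50, edgeR adjusted p = 0.461).

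The makeup of the neuronal RNA was described by setting each member against the counts of the 12 pan-neuronal members, less itself where it is one of them. Per 1000 such counts, Pou4f1 had 2.00 to 4.46 in WT samples and 1.07, 22.6 and 31.3 in Dlx2OE samples 1 to 3. Tlx3 had 1.37 to 1.90 in WT samples and 0.107, 6.61 and 10.7 in Dlx2OE samples. Pou4f1 and Tlx3 thus made up a larger part of neuronal counts in Dlx2OE 2 and 3, and a smaller one in Dlx2OE 1, than in any WT sample. On this scale Ret was 35.9 to 74.7 in WT samples and 1.89 to 6.88 in Dlx2OE samples, and 8 members (Ret, Isl1, Isl2, Elavl2, Elavl4, Syt1, Dcx and Uchl1) were lower in all Dlx2OE samples than in all WT samples. None was higher without overlap, and 29 overlapped. A member that rises less than the sum is lower on this scale. All of these 8 but Ret had a log2 fold change above 0 in CPM, so their lower ratios do not mean lower levels. The share of all genes that would be lower in this way was not computed. These ratios also shift with the most abundant members of the sum, such as Nefm and Tubb3, and were not tested.

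Other neuronal genes, from lists of genes outside the members, were set beside them. Of 35 other pan-neuronal genes tested, 1 rose (2.99% of all genes) and none fell (3.46%) in edgeR. The median log2 fold change was 1.05. DESeq2 called 3 of them higher (5.81% of all genes) and none lower (7.54%). For 20 of the 35, Dlx2OE 2 and 3 were both above all WT samples and Dlx2OE 1 was not (8.58% of all genes). The gene that rose in edgeR was Thy1, a neuronal surface protein that other cells also make. Its levels were 1.37, 2.75 and 1.38 CPM in WT samples and 10.3, 7.36 and 4.36 CPM in Dlx2OE samples (edgeR adjusted p = 0.0334). Thy1 was highest in Dlx2OE 1, unlike the pan-neuronal sum, and was called in 2 of 6 fits with a sample left out. Next by edgeR p was Cntn2, which did not pass (log2 fold change 3.82, edgeR adjusted p = 0.0603, DESeq2 adjusted p = 0.0123). Cntn2 had 109, 556 and 293 counts in WT samples and 478, 3252 and 8891 counts in Dlx2OE samples, the order of the pan-neuronal sum. Mapt and Kif1a came next (log2 fold change 2.45 and 1.16, edgeR adjusted p = 0.0918 and 0.0951). Groups did not overlap for Kif1a. Of 15 other sensory neuron genes tested, 2 rose (2.99% of all genes) and none fell (3.46%) in edgeR. The median log2 fold change was 1.10. In this list DESeq2 called 5 genes higher (5.81% of all genes) and none lower (7.54%). Tac1, which encodes substance P, had 1.23, 2.62 and 1.64 CPM in WT samples and 8.64, 8.15 and 8.79 CPM in Dlx2OE samples. The 3 Dlx2OE samples were at 1 level for Tac1, although their neuronal sums differed by 6.17-fold (log2 fold change 2.22, standard error 0.29, edgeR adjusted p = 0.0116). Piezo2, a mechanosensitive channel, had a log2 fold change of 0.71 (edgeR adjusted p = 0.0385) and was called in 2 of 6 fits with a sample left out, against 6 of 6 for Tac1. P2rx3, the ATP-gated channel of sensory neurons, had 1.13, 3.68 and 0.994 CPM in WT samples and 0.743, 19.5 and 43.6 CPM in Dlx2OE samples, the order of Pou4f1, and did not pass (edgeR adjusted p = 0.101).

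In the neurotrophin and GDNF pathway, 2 of 14 tested genes rose (2.99% of all genes) and none fell (3.46%) in edgeR. The median log2 fold change was 0.059. Shc3, an adaptor of neurotrophin receptors, had 1.91, 1.56 and 2.12 CPM in WT samples and 8.94, 4.14 and 5.50 CPM in Dlx2OE samples (log2 fold change 1.73, standard error 0.32, edgeR adjusted p = 0.0271). All Dlx2OE samples were above all WT samples, and the highest was Dlx2OE 1. The other gene that rose was Kidins220, a scaffold of these receptors, with a log2 fold change of 0.52 (edgeR adjusted p = 0.0426). Shc3 was called in 3 and Kidins220 in 2 of the 6 fits with a sample left out. The GDNF family ligands Gdnf, Nrtn and Artn and the co-receptors Gfra1, Gfra2 and Gfra3, named because they act with Ret, had log2 fold changes of 0.11, -0.27, -0.32, -0.14, 0.0041 and 0.52 and overlapping groups. Groups did not overlap for the ligand Pspn, lower in Dlx2OE (-0.43, edgeR adjusted p = 0.425), and the co-receptor Gfra4, higher (0.38, edgeR adjusted p = 0.185), and neither passed the test.

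Of 5 autonomic neuron genes tested in edgeR, 1 fell (3.46% of all genes) and none rose (2.99%), with a median log2 fold change of -1.06. The 8 genes of the list summed to 17.9 to 32.5 CPM in WT samples and 9.69 to 32.2 CPM in Dlx2OE samples. The gene that fell was Dbh, the enzyme that makes noradrenaline, with 53, 263 and 198 counts in WT samples and 1, 3 and 4 counts in Dlx2OE samples (edgeR adjusted p = 0.0102). Every Dlx2OE sample was near the floor for Dbh, and it was called in each of 6 fits with a sample left out. Ddc, which makes dopamine and serotonin, had 242, 311 and 274 counts in WT samples and 89, 178 and 121 counts in Dlx2OE samples. Its groups did not overlap (log2 fold change -1.06, standard error 0.26, edgeR adjusted p = 0.0508). DESeq2 called 3 genes of the list lower (7.54% of all genes), Dbh, Ddc and Phox2a, and none higher. Phox2a, not tested in edgeR, had 3, 99 and 40 counts in WT samples and 4, 3 and 8 in Dlx2OE samples. Its groups overlapped (DESeq2 adjusted p = 0.00843). Th, tyrosine hydroxylase, which some sensory neurons also make, had 8, 49 and 24 counts in WT samples and 2, 359 and 543 counts in Dlx2OE samples, and is given because, alone of the 5 tested, it was below every WT sample in Dlx2OE 1 and above them all in Dlx2OE 2 and 3 (edgeR adjusted p = 0.127). Ret, which autonomic as well as sensory neurons make, was low in the same samples as Dbh and Ddc, and its part in either cell type was not tested.

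Markers of other cells that a dissection could hold were compared with the neuronal sum. Beside their edgeR calls, the share of all tested genes called was 2.99% higher and 3.46% lower. The 9 genes of satellite glia and Schwann cells summed to 174 to 179 CPM in WT samples and to 115, 214 and 345 CPM in Dlx2OE samples 1 to 3, the order of the neuronal genes. Among them Fabp7, a fatty acid binding protein of immature glia, had 407, 582 and 282 counts in WT samples and 135, 1770 and 3454 counts in Dlx2OE samples (edgeR adjusted p = 0.157). None of the 8 glial genes tested passed, and Foxd3 was at 0 in all samples. The brain list summed to 12.6 to 36.2 CPM in WT samples and 53.8, 25.1 and 29.2 CPM in Dlx2OE samples, with Emx2 as the 1 gene of 8 tested that rose (edgeR adjusted p = 0.0218, called in 4 of 6 fits with a sample left out). Retina and lens genes summed to 7.69 to 25.7 CPM in WT samples and 14.7, 6.02 and 5.13 CPM in Dlx2OE samples, and olfactory neuron genes to 9.87 to 17.7 and 6.99 to 9.97 CPM. None of the 3 or the 4 genes tested in them passed. Of 7 GABAergic neuron genes tested, 1, Sp9, rose (edgeR adjusted p = 0.0214, called in 4 of 6 such fits), and their sum was 37.4, 13.3 and 25.9 CPM in Dlx2OE samples. The brain, retina and GABAergic sums were thus each highest in Dlx2OE 1 among Dlx2OE samples, where the members were lowest. Surface epithelium genes summed to 662 to 1178 CPM in WT samples and 1654, 531 and 525 CPM in Dlx2OE samples, which also set Dlx2OE 1 apart. Of 8 surface epithelium genes tested, 2 fell and none rose, and of 7 mesenchymal genes 1 rose. Among blood, vessel and muscle lists, 3 of 8 erythroid, 2 of 6 macrophage, 1 of 6 endothelial and 0 of 8 skeletal muscle genes fell in edgeR. DESeq2 called 1 muscle gene lower (7.54% of all genes), and 3 were lower at an unadjusted edgeR p under 0.05 (15.4%). The part of glial, epithelial or ganglionic content in the neuronal differences was not tested.

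The likeness of genes to the neuronal sum was measured as Pearson's r of log2 CPM with the log2 sum over the 6 samples, which share their libraries and scaling, and it is given as a description. For a member in the sum, the sum of the other members was used. Of 34 tested members, 16 had an r of at least 0.9. Values below 0 were found for 3, Ntf3 (-0.45), Ret (-0.23) and Scg2, whose r of -0.0004 was nearly 0. Of 14626 other genes with a mean of at least 1 CPM, 113 (0.773%) had an r of at least 0.95. This threshold is stricter than that used for the members, so the counts cannot be compared. The 10 with the highest values, 0.990 to 0.996, were Sez6l, Ppp1r14a, Car10, Ttbk1, 2500002B13Rik, Akap6, Sgip1, Nmnat2, Mreg and Frmd3. Sez6l had 0.478, 1.73 and 0.866 CPM in WT samples and 0.911, 2.32 and 5.83 CPM in Dlx2OE samples. None of these 10 genes passed the genotype test, with edgeR adjusted p-values from 0.0986 to 0.578.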

How the data were processed

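The 6 libraries (3 WT, 3 Dlx2OE) hold RNA of maxillary prominences at E12.5. The methods of the study name 6 littermates as the source and the labels name 7, so it is not clear whether each sample was 1 embryo. The study describes the samples as independent biological replicates, and they were treated as such. Libraries were made from poly(A) RNA with a kit that does not mark strand. The authors mapped the reads to mm10 with STAR 2.7.3a and counted them per gene with HTSeq 0.12.4 in union mode. The deposited values are raw counts per gene, not normalized. The annotation release and strand setting are not given in the sources used here. The 5 summary lines of each file stayed out of library sizes and tests.

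Symbols, positions and exon lengths came from GENCODE M21 (GRCm38), where 53706 of 53801 identifiers were matched, and the other 95 stayed in the tests unnamed. Counts were tested on genotype alone with edgeR 4.0.16 in R 4.3.3 (filterByExpr with a minimum count of 10, TMM, quasi-likelihood F test) with Benjamini-Hochberg adjustment over 17514 genes, and 34 of 37 members were tested. A call is an adjusted p under 0.05. The floor of 3 counts covers counting error only, since reads copied from a single molecule are not independent. DESeq2 1.42.0 was an alternative, with its own size factors, and it gave no adjusted p for Neurog2. Other alternatives were RLE factors, library size alone, no filter, 10 counts in every sample, a replicate block, a loess fit that removes trends with gene length and GC content (span 0.5), alone or with the block, removal of haemoglobin and mitochondrial genes, the fold-change rule of the study, and leaving out each sample. The script was tested on simulated data.

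The members and the other lists were chosen with earlier results of these data known, and a few genes of the other lists are not reported here and were left out of their counts and sums. Values in every sample are given for members called by edgeR or DESeq2 and for the member of each role group with the highest mean CPM per kb, for up to 4 genes of each other list by smallest p, and for 10 genes most like the neuronal sum. Genes given for another reason are said to be so. Promoter sequences are from RefSeq (GRCm38). Python 3.11.15 with matplotlib 3.10.9 drew the figures.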

Additional observations from a re-analysis of the deposited data

How the results depend on the processing

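With all samples, no member passed in either direction, and no member passed with RLE factors, library size alone, at least 10 counts in every sample, without haemoglobin and mitochondrial genes, or with the fold-change rule of the study. DESeq2 called 4 members higher and 1 lower, edgeR with no filter on low counts 11 and 1, and the length and GC correction 1 and 1. Over the fits that left out 1 sample, 0 to 18 members were called higher and 0 to 1 lower. The 18 came without Dlx2OE 1, and the 1 lower, Ret, without Dlx2OE 3. Ret was also the member called lower by DESeq2, with no filter, with the block and with both corrections. Over all genes, edgeR called 1130 genes, DESeq2 2459, no filter 2044, and the length and GC correction 728. Leaving out 1 sample gave 79 genes without WT 2, 180 without WT 1, 213 without Dlx2OE 2, 315 without Dlx2OE 3, 1944 without Dlx2OE 1 and 2091 without WT 3.

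The replicate numbers were not taken to pair the samples. The deviations of same-numbered samples from their group means correlated at -0.0718, -0.211 and 0.0731. With 3 samples per genotype these values cannot settle whether any pairing exists. With the replicate block, 3 members (Stmn2, Tubb3 and Scn9a) were called higher and 1 (Ret) lower, of 961 genes called. With the block and the length and GC correction together, the counts were 1 (Tubb3) and 1 (Ret), of 450 genes.

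Of 302 values of members under settings that kept all samples, 278 kept their direction and their side of the threshold, 22 passed it, and 2 changed sign. Both of these were Map2, from 0.22 to -0.086 with the length and GC correction and -0.10 with the block added. Of 204 values with a sample left out, 10 changed sign. Lowest and highest log2 fold changes over these fits were -0.36 and 1.50 for Neurog1, -0.028 and 0.37 for Ntf3, -0.019 and 0.37 for Ngfr, -0.17 and 1.99 for Elavl3, -0.074 and 0.83 for Elavl2, -0.21 and 1.08 for Elavl4, -0.22 and 0.64 for Uchl1, and -0.0067 and 1.35 for Isl2. The cause was not tested. Depth limits statements on Pou4f2, Neurog2 and Neurod4, which had at most 10 counts in each WT sample.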
